A study of Mus musculus with 16 samples.

Results

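Cells take up and release amino acids through membrane carriers of the solute carrier families (SLC). The genes described here are the protein-coding genes of the count table whose symbol begins with Slc1a, Slc3a, Slc6a, Slc7a, Slc36a, Slc38a or Slc43a followed by a digit. The rule found 64 genes among 55487 gene identifiers, of which 21936 were protein-coding. A single member, Slc7a6os, matches by its name only: it lies next to Slc7a6 on the opposite strand and is not a transporter.

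The samples were mouse mammary organoids, multicellular structures grown from tissue cells in culture, of 4 genotypes: 3 WT samples, 4 with the PIK3CA mutation, 4 with the HER2 mutation and 5 with both, called double mutants. The series title names the alleles HER2 V777L and PIK3CA H1047R. HER2, Erbb2 in the mouse, is a growth factor receptor, and PIK3CA is a catalytic subunit of phosphoinositide 3-kinase, a kinase that acts downstream of such receptors. All samples shared a growth medium with epidermal growth factor, Rspo1- and Noggin-conditioned medium, N-acetyl-cysteine, which is a source of cysteine, and Glutamax, a glutamine supplement. WT organoids are labelled as normal breast and all mutants as tumor breast, so in each comparison with WT the genotype and the tissue source cannot be told apart. This holds for the interaction too, the difference of the double mutant from the sum of both single-mutant changes, since WT is part of it. The 3 comparisons with WT also share the same 3 WT samples. The promoters or Cre lines behind the alleles, the age of the animals and whether each sample came from its own animal are not given in the sources used here, so p-values measure the spread between these samples, which may be technical. Comparisons between genotypes ask how amino acid transport genes differ with each mutation and with both.

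Amino acid transporters differ in substrate and in what drives them. The Slc3 proteins are heavy chains that bring Slc7 light chains to the membrane, where the pair exchanges one amino acid for another. Slc1 proteins carry glutamate or small neutral amino acids, Slc38 proteins carry glutamine and other neutral amino acids with sodium, Slc36 proteins use protons, Slc43 proteins work without an ion gradient, and the Slc6 family includes carriers of taurine, creatine, glycine and neurotransmitters. In the mammary epithelium these carriers supply milk protein synthesis, and in growing cells they feed mTORC1, a kinase complex that responds to amino acids. When amino acids run short, the kinase Gcn2 (Eif2ak4) favours translation of the transcription factor Atf4, which raises several transporter genes and amino acid synthesis genes.

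Levels are given as CPM, counts scaled to the depth of each library with TMM factors (counts per 1e+06 reads), and comparisons between genes as CPM per kilobase of exon. Total counts per sample were 45545182 to 64168308. Erbb2 RNA was 145 to 171 CPM in WT, 149 to 188 CPM in PIK3CA mutants, 2696 to 4632 CPM in HER2 mutants and 1499 to 2751 CPM in double mutants. The luminal markers were present in every genotype, with sums over 6 genes of 1804 to 2102 CPM in WT, 2854 to 3363 in PIK3CA mutants, 1840 to 2540 in HER2 mutants and 2370 to 4287 in double mutants. The sums of PIK3CA and double mutants lay above WT. On the second principal component of all tested genes, double mutant replicates 2 and 3 lay at -35.6 and -10.86 and the other double mutants between 33.56 and 47.77. HER2 replicate 1 held 5 of the 12 transporter values that stood far from the rest of their group. Values without these libraries are given beside several of the results below. Leaving out double mutant replicates 2 and 3 was chosen after seeing the data, so a call that passes only then is not a test of the difference.

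Of the 64 genes, 48 passed the filter on low counts and were tested, and 16 did not. The 16 had at most 22 counts in any library, and 1 of them, Slc7a12, had no count at all. They included the glutamate carriers Slc1a6 and Slc1a7, the dopamine transporter Slc6a3, and Slc7a9, the light chain of Slc3a1. Of the tested genes, 27 averaged over 10 CPM and 12 averaged under 1 CPM. A gene at such a level can pass the filter through the 1 genotype in which it is higher. Slc6a12 and Slc7a15 did so through WT, so they could be called only as lower in mutants. They are among the lower genes counted against WT below. Slc6a18 and Slc6a19 passed the filter through mutant samples and are among the higher genes counted there.

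The heavy chain Slc3a2 (ENSMUSG00000010095, chromosome 19, 8706882 to 8723369, minus strand, GRCm38) had the highest level per length, 145 CPM per kilobase on average in WT and 81.0 to 109 in the mutant genotypes. It held 25.9% of the summed level per length of all 64 genes. Its partner Slc7a5, which carries leucine and other large neutral amino acids, held 14.4%, the taurine carrier Slc6a6 11.2%, the glutamine carrier Slc38a2 8.04% and the creatine carrier Slc6a8 8.0%. These 5 genes made up 67.5% of the sum. The next were Slc38a10, Slc1a4, Slc43a3, which carries nucleobases, Slc38a3, Slc43a2, Slc7a1 and the lysosomal glutamine carrier Slc38a7, and the first 12 genes together made up 85.9%. Summed over the 64 genes, transporter reads were 2528 to 3268 CPM in WT, 1882 to 2050 in PIK3CA mutants, 2163 to 2484 in HER2 mutants and 1657 to 2303 in double mutants. The WT sums lay above every mutant sum, but this order depended on Slc6a6. WT replicate 2 summed to 2528 CPM, 567.2 of it Slc6a6, and HER2 replicate 4 to 2484 CPM, 297.0 of it Slc6a6. Without this gene these samples lie in the reverse order.

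**Figure D1:**
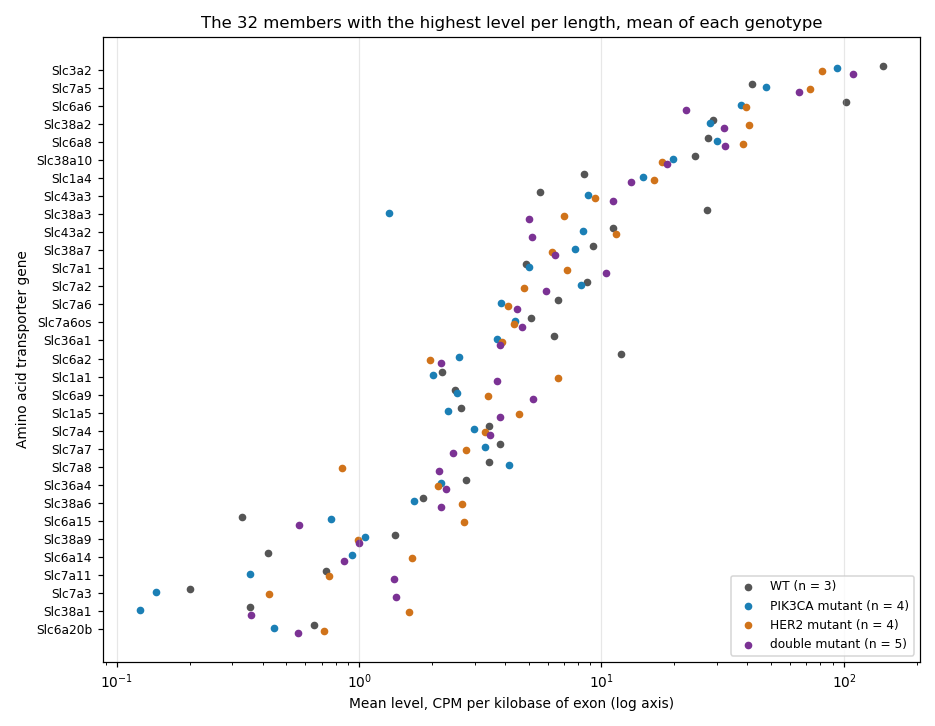
Mean level of the 32 transporter genes with the highest level per length, in CPM per kilobase of exon on a log axis, with 1 point per genotype (3 WT, 4 PIK3CA mutant, 4 HER2 mutant and 5 double mutant samples). Slc3a2 leads in WT at 145, Slc6a6 is highest in WT, and Slc38a3 has its highest mean in WT at 27.2 and its lowest in PIK3CA mutants.

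Against WT, 10 of the 48 tested genes passed an adjusted p of 0.05 in PIK3CA mutants (3 higher, 7 lower), 10 in HER2 mutants (4 higher, 6 lower) and 14 in double mutants (5 higher, 9 lower). Those are 20.8%, 20.8% and 29.2% of the tested transporters, where 4.52%, 10.4% and 11.8% of all 24252 tested genes passed. By direction, 1.49% of all genes were higher and 3.03% lower in PIK3CA mutants, 4.75% and 5.63% in HER2 mutants, and 5.03% and 6.72% in double mutants. The median log2 difference from WT over the 48 genes was -0.24, -0.15 and -0.11, against -0.03, 0.03 and 0.01 over all genes. Every sample of PIK3CA mutants lay above or every sample below WT for 19 of the 48 genes (4 higher, 15 lower), as for 29.5% of all genes. For HER2 mutants these were 14 genes (5 higher, 9 lower; 22.2% of all genes) and for double mutants 21 (6 higher, 15 lower; 23.0%). All p-values come from edgeR's quasi-likelihood test, corrected after Benjamini and Hochberg across the 24252 genes, and SE is the standard error of a log2 difference.

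These counts depended on single libraries. Without WT replicate 3 the counts were 4, 1 and 8 for PIK3CA, HER2 and double mutants, and without WT replicate 1 they were 6 and 5 for PIK3CA and HER2 mutants. Without HER2 replicate 1 the HER2 count was 17 (6 higher, 11 lower), with Slc38a3 and Slc7a8, described below, and Slc6a15 (log2 difference 3.44), Slc43a3 (1.09), Slc36a1 (-1.01), Slc6a4 (-3.21) and Slc38a10 (-0.62) added, and without double mutant replicates 2 and 3 the double mutant count was 13. When each pair of genotypes was fitted alone, 17 genes passed in PIK3CA mutants with edgeR and 0 in HER2 mutants, where the 10 genes kept their direction with adjusted p from 0.052 to 0.153. The share of all genes that passed in these other fits is not given here, so their counts have no background beside them.

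Markers of other cells moved with the comparison to WT. Summed over 7 macrophage and myeloid markers, the level was 1155 to 4304 CPM in WT, 612 to 772.8 in PIK3CA mutants, 273.3 to 455.2 in HER2 mutants and 238.9 to 424.5 in double mutants. Of these 7 markers, 6 fell in PIK3CA mutants, 5 in HER2 mutants and 6 in double mutants, with edgeR. Cd14 passed in none of these comparisons. It was the only marker of the 7 to pass between HER2 and PIK3CA mutants, lower in HER2 mutants, while the median log2 difference of the 7 was 2.99. The sums therefore order these genotypes opposite to most of the markers. Lyz2 was 404.5 to 2649 CPM in WT, at most 7.84 in PIK3CA mutants and at most 0.337 in double mutants, while HER2 replicates 1 and 2 held 142.5 and 58.2 CPM. The sum of 6 fibroblast markers was 325.2 to 1899 CPM in WT, 65.1 to 471.4 in PIK3CA mutants, 34.0 to 623.7 in HER2 mutants and 26.2 to 58.0 in double mutants, and 5 of the 6 fell in double mutants, 1 in HER2 mutants and 0 in PIK3CA mutants. Of 7 milk genes, 6 rose in HER2 mutants, 3 in double mutants and 0 in PIK3CA mutants, with sums of 3291 to 5539 CPM in WT, 8718 to 14640 in PIK3CA mutants, 6241 to 51870 in HER2 mutants and 7118 to 22830 in double mutants. Epithelial markers moved against WT as well. The basal marker Myh11 fell in every mutant genotype, Krt5 fell in HER2 mutants and Krt17 rose in double mutants. The luminal marker Krt8 rose in double mutants, Areg rose in HER2 and double mutants, and Esr1 fell in PIK3CA and double mutants. No marker of these lists was at 0 in a whole genotype. Their part in the results against WT was not tested, and in these bulk samples fewer cells of a type and less RNA per cell cannot be told apart.

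The heavy chain fell in HER2 mutants. Slc3a2 was 552.2, 452.2 and 530.4 CPM in WT, 307.2, 326.7, 354.6 and 328.1 in PIK3CA mutants, 166.8, 319.3, 325.0 and 331.6 in HER2 mutants, and 354.3, 346.0, 381.9, 401.2 and 435.3 in double mutants. All 13 mutant samples lay below all WT samples. The log2 difference from WT was -0.84 in HER2 mutants (edgeR adjusted p 0.012, SE 0.19). It was -0.64 in PIK3CA mutants (edgeR adjusted p 0.072, SE 0.19) and -0.41 in double mutants (edgeR adjusted p 0.15, SE 0.18), which did not pass. Double mutants lay above every HER2 mutant sample, with a log2 difference of 0.43 (edgeR adjusted p 0.192, SE 0.17). The HER2 call against WT was lost without WT replicate 1 or 3, with an adjusted p of up to 0.0595, and without HER2 replicate 1 the difference was -0.65 (adjusted p 0.00509). The interaction was 1.06 (edgeR adjusted p 0.0601, SE 0.25), and it passed without HER2 replicate 1 (0.87, adjusted p 0.0142) and without double mutant replicates 2 and 3 (1.11, adjusted p 0.0408). The other heavy chain, Slc3a1, was at 0.270 to 3.62 CPM in the 16 samples and passed in no comparison.

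Of the light chains, Slc7a5 passed in no comparison, although its levels spread widely. It was 146.1, 129.9 and 187.2 CPM in WT, 166.7, 166.4, 198.0 and 178.0 in PIK3CA mutants, 254.0, 159.9, 209.4 and 454.2 in HER2 mutants, and 294.2, 121.5, 134.6, 311.0 and 354.7 in double mutants. Double mutant replicates 1, 4 and 5 lay above all WT and PIK3CA mutant samples, and replicates 2 and 3 lay within or below the WT range. The log2 difference of double mutants from WT was 0.66 (edgeR adjusted p 0.259, SE 0.36), and 1.05 without replicates 2 and 3 (SE 0.29, adjusted p 0.0384). The level of Slc7a6, which exchanges cationic for neutral amino acids, ranged from 4.13 to 35.99 CPM within HER2 mutants alone. Slc7a8, another carrier of large neutral amino acids, was lower in every HER2 mutant sample (1.80 to 8.13 CPM) than in every WT sample (8.62 to 27.9 CPM), a log2 difference of -2.01 that did not pass (edgeR adjusted p 0.0756, SE 0.69). Without HER2 replicate 1 it was -2.53 and passed (adjusted p 0.0443).

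Slc7a11 (ENSMUSG00000027737, chromosome 3, 49892526 to 50443614, minus strand), the light chain that takes up cystine in exchange for glutamate, rose in double mutants against PIK3CA mutants. It was 7.04, 9.01 and 14.4 CPM in WT, 6.14, 3.80, 3.59 and 6.18 in PIK3CA mutants, 7.04, 14.3, 12.7 and 7.64 in HER2 mutants, and 21.6, 18.7, 6.42, 28.5 and 21.9 in double mutants. Every PIK3CA mutant sample lay below every sample of the other genotypes, and 4 of the 5 double mutants lay above every other sample. The log2 difference between double and PIK3CA mutants was 1.98 (3.94-fold, edgeR adjusted p 0.0286, SE 0.38). The differences from WT were -1.04 in PIK3CA mutants (edgeR adjusted p 0.189, SE 0.41), 0.04 in HER2 mutants (edgeR adjusted p 0.965, SE 0.41) and 0.94 in double mutants (edgeR adjusted p 0.144, SE 0.40). The call between double and PIK3CA mutants was lost in 8 of the 9 fits that left out 1 sample of these genotypes, all but the fit without double mutant replicate 3, with an adjusted p of up to 0.14. Without double mutant replicates 2 and 3 the difference was 2.28 (adjusted p 0.00827), the difference from WT was 1.24 and passed (adjusted p 0.0358), and the interaction was 2.24 and passed (adjusted p 0.0164).

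Atf4 acts through a composite site that it binds with C/EBP proteins, and the letters of its core, TGATGNAA, were searched on both strands in promoter windows from 250 bases before to 50 bases after each RefSeq start in GRCm38.p6. Of all 32851 windows, 3.97% held the motif and 0.07% held at least 2 matches, and 4.51% of 27025 genes held it in a window. Among the transporters with an entry, 4 of 46 genes held it: Slc7a11, Slc1a4, Slc7a7 and Slc6a21. The windows of Slc7a11 and Slc1a4 are shown because both genes passed in a comparison. Slc7a11 holds 2 matches in 1 window, as Slc7a7, which passed nowhere, also does. Each is read 5′ to 3′ on the gene's strand, with the motif or its reverse complement in capitals. The Slc7a11 stretch, chr3:50443614-50443763 on the minus strand, ends just before the start and its matches begin 66 and 47 bases before it. The Slc1a4 stretch, chr11:20332710-20332863 on the minus strand, has 1 match that spans the start itself, beginning 4 bases before it. A match is a run of letters and does not show binding.
Slc7a11: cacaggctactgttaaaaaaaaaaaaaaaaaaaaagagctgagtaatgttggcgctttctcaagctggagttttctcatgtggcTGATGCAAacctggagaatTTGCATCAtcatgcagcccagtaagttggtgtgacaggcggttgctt
Slc1a4: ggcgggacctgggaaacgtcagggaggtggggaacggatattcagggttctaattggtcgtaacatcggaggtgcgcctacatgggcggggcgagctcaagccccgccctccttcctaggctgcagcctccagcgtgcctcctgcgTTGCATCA

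Among the cationic carriers, Slc7a1, which takes up arginine and lysine, rose in double mutants against both WT and PIK3CA mutants. It was 51.0, 58.0 and 60.0 CPM in WT, 65.7, 56.4, 47.1 and 63.5 in PIK3CA mutants, 70.3, 58.7, 87.7 and 115.4 in HER2 mutants, and 129.5, 95.03, 79.95, 138.2 and 157.8 in double mutants. All 5 double mutants lay above all WT and PIK3CA mutant samples. The log2 difference was 1.09 from WT (2.13-fold, edgeR adjusted p 0.0069, SE 0.24) and 1.05 from PIK3CA mutants (2.06-fold, edgeR adjusted p 0.0406, SE 0.21). The call against WT passed in every alternative run, with an adjusted p of at most 0.0432 in the fits that left out 1 sample. The call against PIK3CA mutants was lost in 8 of 9 such fits, all but the fit without double mutant replicate 3, with an adjusted p of up to 0.178.

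Slc7a3, a cationic carrier at low level, split the double mutants. It was 0.617 to 0.909 CPM in WT, 0.250 to 0.723 in PIK3CA mutants, 0.8288 to 2.27 in HER2 mutants, and 4.42, 0.776, 0.236, 7.67 and 13.9 in double mutants. Replicates 1, 4 and 5 were the highest of the 16 samples, and replicate 3 the lowest. The log2 difference of double mutants was 2.82 from WT (edgeR adjusted p 0.0586, SE 0.92) and 3.29 from PIK3CA mutants (edgeR adjusted p 0.0931, SE 0.84). Without replicates 2 and 3 these were 3.50 (adjusted p 0.00228) and 3.97 (adjusted p 0.00286), and the interaction passed too (2.90, adjusted p 0.0222). Replicates 2 and 3 were the lowest double mutants for this gene and were left out after seeing the data, so these p-values do not test the difference. The arginine carrier Slc7a2 was at 14.8 to 103.2 CPM and passed in no comparison.

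In the Slc1 family, 5 of 7 genes were tested, and all calls against WT were of higher levels in mutants. Slc1a4 (ENSMUSG00000020142, chromosome 11, 20302180 to 20332713, minus strand), an exchanger of alanine, serine and cysteine, was 28.4, 39.6 and 31.98 CPM in WT, 57.3, 54.7, 58.0 and 62.8 in PIK3CA mutants, 44.0, 74.7, 78.9 and 60.1 in HER2 mutants, and 43.5, 41.9, 67.4, 51.0 and 56.0 in double mutants. No mutant sample overlapped WT. The log2 difference from WT was 0.80 in PIK3CA mutants (edgeR adjusted p 0.0324, SE 0.20), 0.95 in HER2 mutants (edgeR adjusted p 0.00946, SE 0.20) and 0.64 in double mutants (edgeR adjusted p 0.0427, SE 0.19). The double mutant lay below the sum of the single-mutant changes by 1.11 on the log2 scale (SE 0.27), an interaction with an edgeR adjusted p of 0.061. It passed without HER2 replicate 1 (-1.26, adjusted p 0.0156) and without double mutant replicates 2 and 3 (-1.17, adjusted p 0.0274). The calls of PIK3CA and double mutants were each lost without WT replicate 1 or 3 and without 3 single mutant libraries of their own genotype (PIK3CA replicates 1, 3 and 4; double mutant replicates 3, 4 and 5), with adjusted p of up to 0.165 and 0.194. The double mutant call was also lost with upper-quartile factors, without a filter on low counts and without double mutant replicates 2 and 3 (adjusted p 0.0533, 0.0548 and 0.0787). The HER2 call was lost without WT replicate 1 or 3 (adjusted p up to 0.0571).

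Slc1a1, a carrier of glutamate and aspartate, and Slc1a5, the main exchanger of glutamine, both rose in HER2 mutants. Slc1a1 was 31.3, 11.97 and 11.2 CPM in WT, 15.1, 15.9, 17.7 and 17.7 in PIK3CA mutants, 36.5, 58.7, 37.4 and 86.6 in HER2 mutants, and 42.98, 31.5, 19.3, 34.5 and 24.2 in double mutants. The log2 difference of HER2 mutants was 1.59 from WT (3.02-fold, edgeR adjusted p 0.0169, SE 0.38) and 1.72 from PIK3CA mutants (3.30-fold, edgeR adjusted p 0.0124, SE 0.35). The second call passed in every alternative run, and the first was lost without WT replicate 2 or 3 (adjusted p up to 0.103) and was 2.24 without WT replicate 1. Slc1a1 shares 2631 exonic bases with 4430402I18Rik on the opposite strand, and strand use was not stated, but that gene averaged at most 1.065 CPM in any genotype. Double mutants lay above every PIK3CA mutant sample, and their log2 difference from HER2 mutants was -0.84 (edgeR adjusted p 0.171, SE 0.32).

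Slc1a5 was 8.18, 10.5 and 14.3 CPM in WT, 9.61, 8.18, 9.85 and 11.4 in PIK3CA mutants, 17.7, 20.0, 21.6 and 17.0 in HER2 mutants, and 13.0, 17.8, 10.8, 17.1 and 20.5 in double mutants. All HER2 mutants lay above all WT and PIK3CA mutant samples. The log2 difference was 0.80 from WT (edgeR adjusted p 0.0391, SE 0.23) and 0.97 from PIK3CA mutants (edgeR adjusted p 0.0188, SE 0.21). The call against WT was lost without WT replicate 1 or 2 or HER2 replicate 2 or 3 (adjusted p up to 0.183) and without a filter on low counts (0.0623), and the call against PIK3CA mutants without PIK3CA replicate 1, 2 or 3 (adjusted p up to 0.0766).

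**Figure D2:**
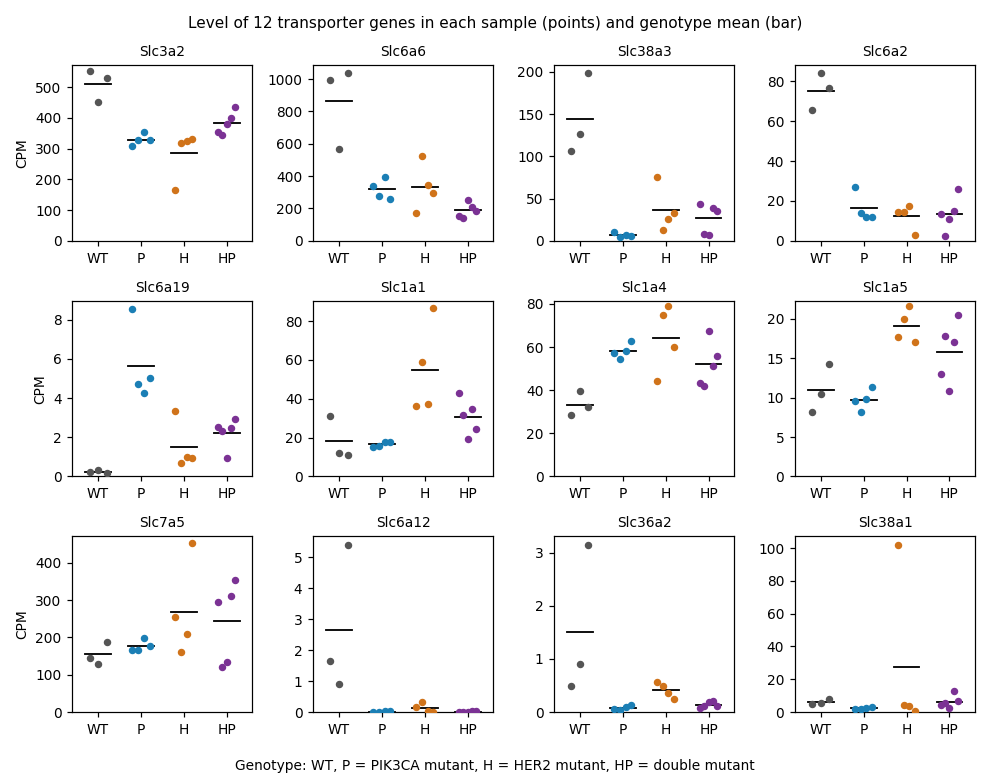
Level of 12 transporter genes in CPM, with 1 point per sample and a bar at the genotype mean (3 WT samples, 4 with the PIK3CA mutation, P, 4 with the HER2 mutation, H, and 5 with both, HP). Slc3a2, Slc6a6, Slc38a3 and Slc6a2 are highest in WT, Slc1a1 and Slc1a5 are highest in HER2 mutants, Slc6a19 is highest in PIK3CA mutants, and 1 HER2 sample stands apart for Slc38a1 at 102.0 CPM.

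Among the sodium-coupled neutral carriers, Slc38a3 (ENSMUSG00000010064, chromosome 9, 107650634 to 107669530, minus strand), which carries glutamine, asparagine and histidine, showed the widest differences. It was 106.7, 126.6 and 198.2 CPM in WT, 10.2, 4.999, 7.26 and 5.61 in PIK3CA mutants, 75.5, 13.4, 25.6 and 33.3 in HER2 mutants, and 43.7, 7.87, 7.48, 38.8 and 34.9 in double mutants. No mutant sample reached the WT range, and the PIK3CA mutants lay below every HER2 mutant. The log2 difference from WT was -4.36 in PIK3CA mutants (edgeR adjusted p 0.00151, SE 0.66) and -2.44 in double mutants (edgeR adjusted p 0.0115, SE 0.57). In HER2 mutants it was -1.96 (edgeR adjusted p 0.052, SE 0.61), and HER2 mutants lay 2.40 above PIK3CA mutants (edgeR adjusted p 0.0341, SE 0.60). The double mutant level exceeded the sum of the single-mutant changes by 3.88 on the log2 scale (SE 0.83, interaction adjusted p 0.0379 with edgeR).

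Slc38a3 in PIK3CA mutants passed in every alternative run. The double mutant call was lost without WT replicate 3 (adjusted p 0.0697). The call between HER2 and PIK3CA mutants was lost without any 1 of the 4 PIK3CA replicates or without HER2 replicate 1 (adjusted p up to 0.111), and the interaction in 12 of 16 fits that left out 1 sample, those kept being without HER2 replicate 1 or 2 or double mutant replicate 2 or 3 (adjusted p up to 0.127). Without HER2 replicate 1 the HER2 difference from WT was -2.58 and passed (adjusted p 0.0177). Without double mutant replicates 2 and 3 the interaction was 4.44 (adjusted p 0.00348).

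The other tested Slc38 genes passed in no comparison in the edgeR fit of all 16 samples. Slc38a2, a glutamine and alanine carrier known to rise when amino acids run short, was 242.4 to 264.9 CPM in WT, 210.2 to 274.5 in PIK3CA mutants, 261.9 to 456.6 in HER2 mutants and 249.4 to 345.9 in double mutants. Its log2 difference between HER2 mutants and WT was 0.49 (95% interval 0.12 to 0.85, edgeR adjusted p 0.085). Slc38a9, the lysosomal arginine sensor of mTORC1, was 21.2 to 24.9 CPM in WT and 11.8 to 21.2 CPM in the mutants, with log2 differences of -0.41 for the PIK3CA mutation, -0.51 for the HER2 mutation and -0.49 for both (SE 0.18 to 0.19) and edgeR adjusted p from 0.0974 to 0.297. Slc38a1, a glutamine carrier, was 102.0 CPM in HER2 replicate 1 and 0.676 to 4.16 CPM in the other HER2 mutants. WT held 4.58 to 8.01 CPM of it and PIK3CA mutants 1.53 to 2.75 CPM.

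In the Slc6 family, the taurine carrier Slc6a6 (ENSMUSG00000030096, chromosome 6, 91684053 to 91759066, plus strand) had the most reads of the 64 genes in WT and fell in every mutant genotype. It was 991.0, 567.2 and 1040 CPM in WT, 336.1, 279.7, 393.0 and 261.6 in PIK3CA mutants, 169.7, 526.1, 346.6 and 297.0 in HER2 mutants, and 152.6, 141.2, 252.9, 206.6 and 186.7 in double mutants. No mutant sample reached the lowest WT sample, and every double mutant lay below every PIK3CA mutant. The log2 difference from WT was -1.45 in PIK3CA mutants (edgeR adjusted p 0.0132, SE 0.31), -1.37 in HER2 mutants (edgeR adjusted p 0.0125, SE 0.31) and -2.20 in double mutants (edgeR adjusted p 0.000324, SE 0.29). Double mutants differed from HER2 mutants by -0.83 (edgeR adjusted p 0.113, SE 0.27) and from PIK3CA mutants by -0.76 (edgeR adjusted p 0.259, SE 0.27), which did not pass. The double mutant call passed in every alternative run. The PIK3CA call was lost without WT replicate 1 or 3 or PIK3CA replicate 2 (adjusted p up to 0.0858), and the HER2 call without WT replicate 1 or 3 (adjusted p up to 0.0712). Cdo1, which starts taurine synthesis from cysteine, is described with the enzymes below.

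The noradrenaline transporter Slc6a2 was 65.6, 84.0 and 76.6 CPM in WT, 26.9, 14.1, 12.1 and 12.1 in PIK3CA mutants, 14.6, 14.7, 17.3 and 2.68 in HER2 mutants, and 13.5, 2.43, 11.2, 15.2 and 26.0 in double mutants. All mutants lay below all WT samples, with log2 differences of -2.21 (edgeR adjusted p 0.0473, SE 0.60), -2.61 (edgeR adjusted p 0.0141, SE 0.61) and -2.47 (edgeR adjusted p 0.00929, SE 0.56). The PIK3CA call was lost in all 7 fits that left out a sample of these genotypes (adjusted p up to 0.149), and the HER2 call without WT replicate 3 (adjusted p 0.0507). The interaction passed without double mutant replicates 2 and 3 (2.77, adjusted p 0.0361). The betaine and GABA carrier Slc6a12 had 95, 46 and 324 counts in the WT libraries, 3 counts over the 4 PIK3CA mutants, 26 over the 4 HER2 mutants and 2 over the 5 double mutants. Per read after TMM scaling, WT exceeded PIK3CA mutants 197.0 times (95% counting interval 67.01 to 959.0), HER2 mutants 21.3 times (14.3 to 32.9) and double mutants 362.5 times (99.8 to 3002). The intervals cover counting error only. All 3 differences passed (edgeR adjusted p 0.00133, 0.00592 and 0.00028), and the HER2 call was lost without WT replicate 3 (adjusted p 0.0731). Since Slc6a12 passed the filter through WT, these calls do not test the direction. WT replicate 3 held 324 of the 465 WT counts.

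The neutral amino acid carriers Slc6a19 and Slc6a18, known from kidney and gut, lie 1.7 kilobases apart on chromosome 13 and were higher in mutants. Slc6a19 (ENSMUSG00000021565, 73679745 to 73704865, minus strand) was 0.210, 0.320 and 0.167 CPM in WT, 8.54, 4.73, 4.27 and 5.04 in PIK3CA mutants, 3.36, 0.675, 0.979 and 0.962 in HER2 mutants, and 2.50, 2.31, 0.962, 2.48 and 2.94 in double mutants. Every mutant sample lay above WT, and every PIK3CA mutant lay above every other sample. Slc6a19 had 12, 16 and 10 counts in the WT libraries and passed the filter through mutant samples. Its calls against WT therefore do not test the direction. The log2 difference from WT was 4.60 in PIK3CA mutants (edgeR adjusted p 0.001, SE 0.61), 2.68 in HER2 mutants (edgeR adjusted p 0.00904, SE 0.57) and 3.26 in double mutants (edgeR adjusted p 0.00168, SE 0.57). HER2 mutants lay below PIK3CA mutants by a log2 difference of -1.92 (edgeR adjusted p 0.031, SE 0.47), and the interaction was -4.02 (edgeR adjusted p 0.0151, SE 0.71). The PIK3CA and double mutant calls passed in every alternative run. The HER2 call against WT was lost without WT replicate 3 (adjusted p 0.0625) and the interaction without WT replicate 1 or 3 (adjusted p up to 0.0718). Without HER2 replicate 1, which held the highest HER2 level, the HER2 difference was 1.91 from WT (adjusted p 0.0123) and -2.69 from PIK3CA mutants (adjusted p 0.00193), and the interaction was -3.24 (adjusted p 0.00991). The call between HER2 and PIK3CA mutants was lost in 7 of 8 fits that left out a sample, all but the fit without HER2 replicate 1 (adjusted p up to 0.101), and in a fit of those genotypes alone (0.0948).

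Slc6a18 (73661752 to 73678023, minus strand) had 5 counts over the 3 WT libraries, 102 over PIK3CA mutants, 36 over HER2 mutants and 77 over double mutants, at most 0.636 CPM in any sample. It passed in PIK3CA mutants (log2 difference 3.83, SE 0.84, edgeR adjusted p 0.014) and double mutants (3.18, edgeR adjusted p 0.0192, SE 0.82), and both calls were lost without WT replicate 1 or 3 (adjusted p up to 0.0953) and were 4.59 and 3.93 without WT replicate 2. With so few WT reads the size of these differences is loosely known. Slc6a18 passed the filter through mutant samples, so it could be called only as higher in mutants. Reads that run past the end of Slc6a19 can also fall in Slc6a18, which lies downstream on the same strand, and this was not tested. The dopamine transporter Slc6a3, the next transporter gene on that side at 83.1 kilobases, was under the filter.

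The glycine transporter Slc6a9 rose in double mutants. It was 13.7, 10.8 and 13.7 CPM in WT, 13.5, 13.0, 11.3 and 14.2 in PIK3CA mutants, 13.7, 17.3, 22.6 and 16.1 in HER2 mutants, and 26.2, 15.9, 20.4, 33.3 and 38.2 in double mutants. All double mutants lay above all WT and PIK3CA mutant samples. The log2 difference was 1.07 from WT (edgeR adjusted p 0.0116, SE 0.25) and 1.04 from PIK3CA mutants (edgeR adjusted p 0.0499, SE 0.23). The first call was lost without WT replicate 2 (adjusted p 0.0545), and the second in 7 of 9 fits, all but those without double mutant replicate 2 or 3 (adjusted p up to 0.213), without a filter (0.0538) and in a fit of those genotypes alone (0.0547). Slc6a9 shares 1429 exonic bases with the protein-coding gene Ccdc24 on the opposite strand, which averaged at most 0.697 CPM in any genotype, and 46 with B4galt2, at most 8.15 CPM.

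**Figure D3:**
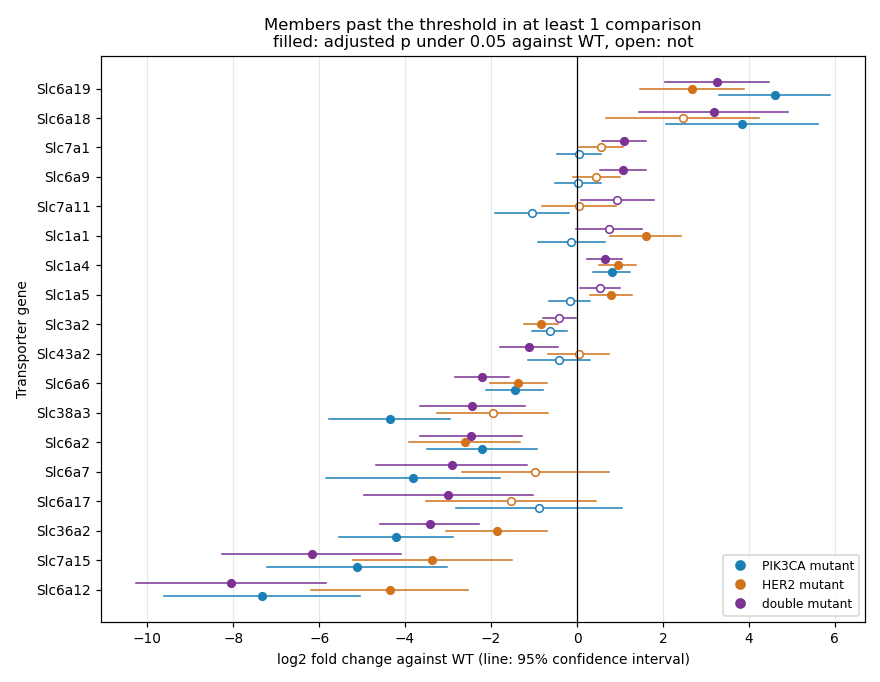
Log2 difference from WT of the 18 transporter genes that passed in at least 1 comparison, for PIK3CA, HER2 and double mutants, with 95% confidence intervals from edgeR and filled points where the adjusted p was under 0.05. Slc6a19 lies farthest to the right at 4.60 in PIK3CA mutants, and Slc6a12, with 2 to 26 counts per mutant genotype, lies farthest to the left.

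Several other low Slc6 genes fell. The proline transporter Slc6a7 was at most 0.684 CPM in any sample, with 62 counts over WT, and fell in PIK3CA mutants (log2 difference -3.82, SE 0.96, edgeR adjusted p 0.0311) and double mutants (-2.91, edgeR adjusted p 0.0311, SE 0.83). Its calls were lost without WT replicate 3 and in other fits that left out 1 sample, each PIK3CA replicate or double mutant replicate 2, 4 or 5 (adjusted p up to 0.251), and without double mutant replicates 2 and 3 (0.0746). Slc6a17, a synaptic vesicle carrier, fell in double mutants (-2.99, edgeR adjusted p 0.0462, SE 0.93), a call lost in 7 of 8 such fits, all but the fit without double mutant replicate 2 (adjusted p up to 0.234), and without replicates 2 and 3 together (0.0678). The creatine carrier Slc6a8 was 102.2 to 412.5 CPM and passed nowhere, its highest value being HER2 replicate 1. Slc6a14, a carrier of neutral and cationic amino acids, was 0.174 to 12.3 CPM within HER2 mutants alone and passed nowhere, and Slc6a15, a carrier of branched-chain amino acids, was 0.340 to 61.3 CPM within that genotype.

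Slc36a2, a proton-coupled carrier of glycine and proline, fell in all 3 comparisons with WT. It was 0.490, 0.900 and 3.15 CPM in WT, 0.0636, 0.0413, 0.0886 and 0.125 in PIK3CA mutants, 0.566, 0.482, 0.356 and 0.246 in HER2 mutants, and 0.0709, 0.105, 0.196, 0.203 and 0.117 in double mutants. These levels rest on 262 counts over WT, 17 over PIK3CA mutants, 83 over HER2 mutants and 36 over double mutants. With so few reads the sizes of the differences are loosely known. The log2 difference from WT was -4.21 in PIK3CA mutants (edgeR adjusted p 0.00135, SE 0.62), -1.87 in HER2 mutants (edgeR adjusted p 0.0417, SE 0.55) and -3.43 in double mutants (edgeR adjusted p 0.000892, SE 0.55). HER2 mutant samples overlapped WT, and all HER2 mutants lay above all PIK3CA mutants (log2 difference 2.34, SE 0.60, edgeR adjusted p 0.0382) and all double mutants. The PIK3CA and double mutant calls passed in every alternative run, at -3.08 and -2.31 without WT replicate 3, the highest sample. The HER2 call was lost without WT replicate 3 or HER2 replicate 2, 3 or 4 (adjusted p up to 0.494) and without a filter (0.0595), and the call between HER2 and PIK3CA mutants in 6 of 8 fits, all but those without HER2 replicate 3 or 4 (adjusted p up to 0.118).

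Slc7a15 had 272 counts over WT, 9 over PIK3CA mutants, 31 over HER2 mutants and 5 over double mutants, and fell in each genotype (edgeR adjusted p 0.00637, 0.0247 and 0.000881). Per read after TMM scaling, WT exceeded these groups 38.4 times (95% counting interval 19.9 to 84.9), 10.4 times (7.18 to 15.7) and 84.8 times (35.9 to 263.3). Like Slc6a12, this gene passed the filter through WT, so it could be called only as lower in mutants. The PIK3CA call was lost without WT replicate 3 (adjusted p 0.0515) and the HER2 call without WT replicate 1 or 3 (adjusted p up to 0.145). HER2 replicate 1 held 23 of the 31 HER2 counts, and without it the HER2 log2 difference moved from -3.37 to -4.81 (adjusted p 0.0054). Slc43a2, a carrier of large neutral amino acids, fell in double mutants, from 102.4, 92.3 and 142.2 CPM in WT to 51.2, 24.2, 51.0, 66.2 and 66.0 CPM. The log2 difference was -1.12 (edgeR adjusted p 0.0307, SE 0.32), lost without WT replicate 1 or 3 or double mutant replicate 3 (adjusted p up to 0.175) and without double mutant replicates 2 and 3 together (0.0976). Slc7a6os, the member that is not a transporter, was 15.3 to 23.8 CPM in the 16 samples and passed nowhere.

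Between mutant genotypes fewer transporters passed. In double against PIK3CA mutants 3 of 48 passed, all higher (6.25%, where 0.672% of all genes passed and 0.309% were higher): Slc7a11, Slc7a1 and Slc6a9. In HER2 against PIK3CA mutants 5 passed, with Slc1a1, Slc1a5, Slc36a2 and Slc38a3 higher and Slc6a19 lower (10.4%, where 4.41% of all genes passed, 2.21% higher and 2.2% lower). In the interaction 2 passed, Slc38a3 and Slc6a19 (4.17%, where 1.06% of all genes passed, 0.515% higher and 0.544% lower). In double against HER2 mutants 0 passed with edgeR, where 2.5% of all genes did, 1.03% higher and 1.47% lower. DESeq2 gave 3 there, all lower: Slc3a1, Slc6a12 and Slc43a2. For DESeq2 and the fits below that left samples out, the share over all genes is not given here. Those counts are therefore not read as results about transporters. Samples of double and HER2 mutants did not overlap for Slc3a2, higher, and Slc36a2, lower (4.59% of all genes). Double and PIK3CA mutants did not overlap for 9 transporters (7.92% of all genes), and HER2 and PIK3CA mutants for 10 (12.5% of all genes). Without double mutant replicates 2 and 3, 4 genes passed against HER2 mutants, all higher: Slc7a3 by 2.43, Slc7a11 by 1.2022, Slc6a9 by 0.90 and Slc7a1 by 0.77 on the log2 scale (edgeR adjusted p 0.0109, 0.0442, 0.0177 and 0.0401). Against PIK3CA mutants 5 then passed, these 4 and Slc38a3. The count against PIK3CA mutants was 0 without any 1 of the 4 PIK3CA replicates or without double mutant replicate 1, 4 or 5, and 1 without replicate 2. The count between HER2 and PIK3CA mutants was 1 without PIK3CA replicate 1, 2 or 3 and 2 without replicate 4. Marker genes moved in these comparisons too, and their part in the results was not tested. In HER2 against PIK3CA mutants the basal markers Acta2, Krt5 and Myh11 fell and 4 of 7 milk genes rose. The luminal markers Krt19 and Foxa1 and the macrophage marker Cd14 fell there too, and Areg rose. In double against HER2 mutants 4 of 7 macrophage markers, 3 of 7 milk genes and the fibroblast marker Col3a1 fell, while Krt5, Krt8, Krt19 and Foxa1 rose. Areg and Csn2 rose in double against PIK3CA mutants.

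Other genes of amino acid metabolism were taken from 3 lists. Of 21 genes of the Gcn2 and Atf4 response, 9 rose and 0 fell in double mutants against WT (median log2 difference 0.89), 7 rose and 0 fell against PIK3CA mutants (median 0.83), and 0 passed against HER2 mutants with edgeR. Of all genes, 5.03%, 0.309% and 1.03% were higher in these comparisons. Without double mutant replicates 2 and 3, 4 were higher and 1 lower against HER2 mutants, and DESeq2 gave 1 lower. Against WT, 4 rose in HER2 mutants and 2 in PIK3CA mutants, and none fell (4.75% and 1.49% of all genes were higher). The HER2 count was 0 without WT replicate 1, 1 without WT replicate 3, 2 without WT replicate 2 or HER2 replicate 3, 7 without HER2 replicate 2, and 1 in a fit of those genotypes alone. Atf4 itself was 188.9 to 209.2 CPM in WT, 161.1 to 198.2 in PIK3CA mutants, 180.7 to 273.6 in HER2 mutants and 229.8 to 385.4 in double mutants. All double mutants lay above all WT and PIK3CA mutant samples, with log2 differences of 0.63 from WT (edgeR adjusted p 0.0255, SE 0.17) and 0.83 from PIK3CA mutants (edgeR adjusted p 0.0257, SE 0.16). The call against WT was lost without any 1 WT replicate or double mutant replicate 5 (adjusted p up to 0.0961), and the call against PIK3CA mutants without any 1 PIK3CA replicate or double mutant replicate 1, 4 or 5 (adjusted p up to 0.121).

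Within the double mutants, the response genes did not move as one. Asns, which makes asparagine, was 86.0, 35.7, 18.2, 61.1 and 72.6 CPM in replicates 1 to 5, and the glutathione-degrading enzyme Chac1 was 33.1, 6.15, 4.48, 23.6 and 30.6 CPM. Both were lowest in replicates 2 and 3, as Slc7a5, Slc7a1, Slc7a3, Slc7a11 and Slc6a9 were. Ddit3, a transcription factor of the stress response, was 18.2, 68.7, 177.6, 18.8 and 27.4 CPM and so highest in replicates 2 and 3. The count against PIK3CA mutants was 0 without PIK3CA replicate 1, 2 or 3 or double mutant replicate 4 or 5, 1 without double mutant replicate 1, 2 without PIK3CA replicate 4, and 8 without double mutant replicates 2 and 3. The count against WT was 3 to 9 in the fits that left out 1 sample, with 3 without WT replicate 1 or 2 and 4 without WT replicate 3. The motif TGATGNAA was in the windows of 6 of 20 genes of this list with an entry: Chac1, Trib3, Asns, Fgf21, Nupr1 and Vldlr, where 4.51% of all genes held it.

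**Figure D4:**
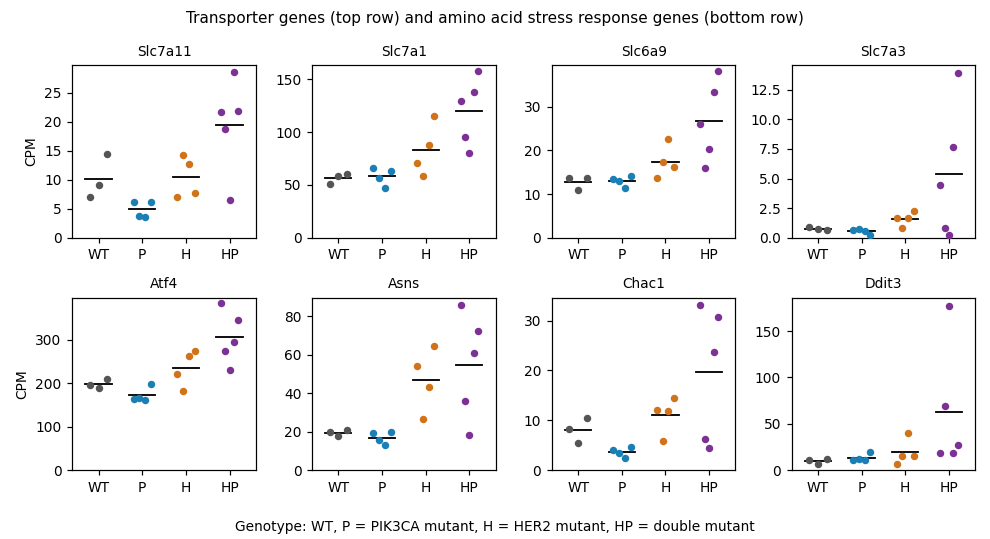
Level in CPM of the transporter genes Slc7a11, Slc7a1, Slc6a9 and Slc7a3 and of the amino acid response genes Atf4, Asns, Chac1 and Ddit3, with 1 point per sample and a bar at the genotype mean (3 WT samples, 4 with the PIK3CA mutation, P, 4 with the HER2 mutation, H, and 5 with both, HP). The double mutants spread widely, from 4.48 to 33.1 CPM for Chac1 and from 0.236 to 13.9 CPM for Slc7a3.

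Of 25 tested genes that sense amino acids for mTORC1, 1 rose and 2 fell in HER2 mutants against WT, 1 rose and 1 fell in double mutants, and 0 passed in PIK3CA mutants. These shares lie near or below the 10.4%, 11.8% and 4.52% of all genes that passed, so the counts say nothing particular to the list. Sesn2, a leucine sensor that is also an Atf4 target and counted in both lists, rose in HER2 mutants (0.81, edgeR adjusted p 0.0227, SE 0.21) and in double mutants (1.35, edgeR adjusted p 0.000677, SE 0.21). Its HER2 call was lost without any 1 WT replicate or HER2 replicate 3 (adjusted p up to 0.0967) and in a fit of those genotypes alone. Its relative Sesn3 fell in HER2 mutants (-1.56, edgeR adjusted p 0.00143, SE 0.24) and double mutants (-1.18, edgeR adjusted p 0.00279, SE 0.22). Rraga, a GTPase that recruits mTORC1 to the lysosome, rose in double mutants against HER2 mutants (0.68, edgeR adjusted p 0.014, SE 0.13), a call lost in a fit of those genotypes alone.

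Of 25 tested enzymes of amino acid metabolism, 7 rose and 2 fell in HER2 mutants against WT, 4 rose and 0 fell in double mutants, and 1 rose and 1 fell in PIK3CA mutants, where 10.4%, 11.8% and 4.52% of all genes passed. In HER2 mutants 1 rose and 1 fell without WT replicate 3 and in a fit of those genotypes alone, and 4 rose without WT replicate 1. In double mutants 2 rose without WT replicate 3. The proline synthesis enzyme Pycr1 rose in HER2 mutants (2.34, edgeR adjusted p 0.00411, SE 0.43) and double mutants (2.41, edgeR adjusted p 0.00182, SE 0.42). Cdo1 was 0.8288 to 1.76 CPM in HER2 mutants and 3.86 to 10.5 CPM in the other genotypes, with a log2 difference of -2.09 from WT (edgeR adjusted p 0.00196, SE 0.33) and an interaction of 2.05 (edgeR adjusted p 0.0385, SE 0.44). The interaction was lost in 11 of 16 fits that left out 1 sample, all but those without PIK3CA replicate 2, HER2 replicate 1, 2 or 3 or double mutant replicate 2 (adjusted p up to 0.091). Odc1, which starts polyamine synthesis from the arginine product ornithine, fell in PIK3CA mutants (-1.01, edgeR adjusted p 0.00161, SE 0.16) and rose in HER2 mutants (0.73, edgeR adjusted p 0.0107, SE 0.16), the second call being lost without WT replicate 3 (adjusted p 0.0662). Glul, which makes glutamine, was 162.3 to 216.8 CPM in PIK3CA mutants and 38.1 to 98.3 CPM in double mutants, a log2 difference of -1.58 (edgeR adjusted p 0.0305, SE 0.31). This call was lost without any 1 PIK3CA replicate or double mutant replicate 1, 4 or 5 (adjusted p up to 0.121).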

How the data were processed

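RNA of 16 organoid samples was sequenced. Per the labels' protocols, total RNA went into libraries of the SMARTER mRNA-Seq type. Tools named in the submitters' processing notes are bcl2fastq 2.20, STAR 2.0.4b, Subread, featureCounts 1.4.5 and DESeq2 1.33.5, with build mm10. Annotation and strand use are not given in the sources used here. The authors deposited whole-number counts per gene, not normalized, in 55774 entries, of which 287 identical repeats were dropped. A deposited normalized table was not used.

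Sample titles gave the genotype. Genes were kept with filterByExpr (24252), scaled with TMM and tested two-sided with edgeR 4.0.16 in R 4.3.3 (glmQLFit and glmQLFTest), in 1 model with the 16 samples and a term for genotype alone. SE is the absolute log2 difference divided by the square root of F. Benjamini-Hochberg adjustment took in every tested gene of a comparison, with a threshold of 0.05. Exon lengths and positions come from GENCODE M21 (GRCm38), which held all 64 genes, and promoter windows from RefSeq (GRCm38.p6). Of the 64 genes, 14 share exon bases with another gene. The procedure was tested on simulated data.

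The genes named were those that passed in at least 1 comparison, the 12 highest per length, 10 set by name, and up to 4 per other list. Slc3a1, Slc6a15, Slc7a2, Slc7a3, Slc7a6 and Slc7a8, and some levels of list genes, were added after their values were seen. The members and lists were chosen with earlier results of these data known.

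Alternatives were median-of-ratios and upper-quartile factors, no filter, DESeq2 1.42.0, only the genotypes compared, the replicate number as a block, leaving out each replicate, and, chosen after seeing the data, leaving out double mutant replicates 2 and 3. Whether the labels' replicate numbers pair the samples is not known. Same-numbered HER2 and double mutants correlated by 0.071 to 0.273 (mean 0.157, against -0.041 for other numbers). In the other pairs of genotypes the mean for the same number was -0.052 to 0.043. No pair of genotypes had every value over 0.1, and the main model held no pairing. A count of 3 corresponded to 0.0477 to 0.0668 CPM. No replicates were near-identical. The closest pair was double mutant replicates 4 and 5, with a chi-square per degree of freedom over genes of 20.1. The other double mutant pairs had 97.84 to 338.83. Whether replicates 4 and 5 share an origin is not known.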

Additional observations from a re-analysis of the deposited data

Results flagged for a closer look

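Among 144 genotype groups of 4 or 5 samples, 12 held a transporter value far from the rest of its group. Normal, independent values would give about 1 in 20 groups. CPM values need not be normal and the genes of a library are not independent, so no excess over chance is claimed. HER2 replicate 1 gave 5 of them: it was the highest HER2 sample for Slc38a1 (102.0 CPM), Slc6a8 (412.5 CPM), Slc36a1 (34.2 CPM) and Slc6a19 (3.36 CPM), and the lowest for Slc3a2 (166.8 CPM). Double mutant replicate 2 was lowest for Slc36a4 (11.6 CPM) and highest for Slc38a8 (0.378 CPM). Double mutant replicate 3 was highest for Slc43a1 (0.864 CPM) and Slc7a8 (31.4 CPM), where the other double mutants held 3.92 to 7.26 CPM of Slc7a8. Double mutant replicate 1 was highest for Slc6a15 (10.9 CPM), PIK3CA replicate 4 for Slc6a17 (1.197 CPM) and PIK3CA replicate 1 for Slc6a2 (26.9 CPM).

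The change with the PIK3CA mutation differed between backgrounds with and without the HER2 mutation for 2 genes. The interaction includes WT, the one genotype from normal breast, so a tissue source difference shared by all mutants enters it and cannot be told apart from the genotypes. It was 3.88 on the log2 scale for Slc38a3 and -4.02 for Slc6a19 (edgeR adjusted p 0.0379 and 0.0151). Slc38a3 changed by -4.36 from WT to PIK3CA mutants and differed by -0.48 from HER2 to double mutants (edgeR adjusted p 0.714). Slc6a19 changed by 4.60 from WT to PIK3CA mutants and differed by 0.58 from HER2 to double mutants (edgeR adjusted p 0.546).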

How the results depend on the processing

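Of the 44 calls of single transporters, 12 passed in every alternative run, 32 were lost without some replicate, and 0 changed direction. Median-of-ratios factors kept the number of transporters called in all 7 comparisons. The number in PIK3CA mutants against WT was 17 in a fit of only those genotypes, and in HER2 mutants 0. In double against HER2 mutants it was 1 with upper-quartile factors, 1 without a filter, 3 with DESeq2 and 4 without double mutant replicates 2 and 3. DESeq2 gave 6 in double against PIK3CA mutants, 8 in HER2 against PIK3CA mutants and 5 in the interaction, and leaving out double mutant replicates 2 and 3 gave 5 in double against PIK3CA mutants and 7 in the interaction. Leaving out 1 replicate at a time gave 4 to 9 in PIK3CA mutants against WT, 1 to 17 in HER2 mutants against WT, 8 to 14 in double mutants against WT, 0 to 2 in double against HER2, 0 to 4 in double against PIK3CA, 1 to 6 in HER2 against PIK3CA mutants and 0 to 4 in the interaction. With the replicate number as a block, the numbers were 8, 9 and 10 against WT, 0 in double against HER2 mutants, 0 in double against PIK3CA mutants, 4 in HER2 against PIK3CA mutants and 1 in the interaction. Whether the numbers pair these samples is not known, so no conclusion on the size of an effect is drawn from the block. The share of all genes that passed is not given for these alternatives. The causes were not tested. Scaling moved the median of all genes by at most 0.06 log2. Depth limits the 12 tested genes that averaged under 1 CPM, where the sizes of differences are loosely known, and the 16 under the filter, which were not tested.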
